A study of Rattus norvegicus with 120 samples.

Results

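The comparison described here sets kidneys of rats given 28 daily doses of FK506 (tacrolimus) at 0.6 mg/kg against kidneys of rats given 28 daily doses of the olive oil vehicle. Its 11 arrays were chosen by their labels alone, 6 for FK506 and 5 for vehicle, out of 120 arrays in the series. All animals were male Sprague-Dawley rats, 5 to 7 weeks old before treatment, on certified rodent chow and dosed by intraperitoneal injection. The study gave olive oil, CsA (cyclosporine, 2.5 or 25 mg/kg), FK506 (0.6 or 6 mg/kg) or Rapa (rapamycin, 1 or 10 mg/kg) once a day for 1, 7, 14 or 28 days and took the kidneys 24 h after the last dose. Besides the 11 arrays, direct tests used the FK506 6 mg/kg group at 28 doses (5 rats) and the FK506 0.6 mg/kg and vehicle groups at 7 and 14 doses (4 rats each). Each array carried RNA of 1 rat, per the rat numbers in the labels, from parts of the left and the right kidney, so different rats were used on each day. The purpose named by the study's title was to find gene markers of kidney injury by calcineurin inhibitors, and 0.6 mg/kg was the lower of its FK506 doses.

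Tacrolimus enters cells and binds the small protein FKBP12, the product of Fkbp1a, and the pair blocks calcineurin, a phosphatase that is switched on by calcium and calmodulin. Calcineurin removes phosphate from NFAT transcription factors so that they can enter the nucleus, and blocking this step in T cells is the basis of immunosuppression. The kidney is the main organ harmed by the drug. In the distal convoluted tubule, calcineurin inhibitors are known for effects on salt transport through the sodium-chloride cotransporter, on magnesium loss and on calcium handling, and injury of the proximal tubule is the other textbook effect.

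Levels are given as log2 of the array intensity after normalization, 1 unit being a doubling, and a change is the FK506 mean minus the vehicle mean on that scale. The median tested gene had a level of 8.27 in vehicle kidney and the 95th percentile was 11.58. A gene was called changed when the adjusted p of limma was under 0.05 (Benjamini-Hochberg over 10663 genes), and every adjusted p below comes from that test. The tissue label was borne out by its markers: the proximal tubule list of 31 tested genes had a mean level of 12.07 to 12.26 in the FK506 rats and 12.29 to 12.37 in the vehicle rats. The median intensity of the arrays before normalization was 67.1 ± 2.62 (SD, n = 6) in FK506 and 74.2 ± 2.68 (SD, n = 5) in vehicle rats, with no overlap. The exact permutation test gave p = 0.002165 (two-sided), the smallest that groups of 6 and 5 allow, and the part of this difference in the results was not tested beyond a fit without quantile normalization. The 3'/5' ratio of the Gapdh control, a sign of RNA quality, was 0.44 ± 0.15 against 0.39 ± 0.046 on the log2 scale (SD, n = 6 and 5, exact permutation p = 0.66), the highest value, 0.71, being that of FK506 rat 2. The hybridization controls, bacterial and phage transcripts added at hybridization, had a log2 level of 10.62 ± 0.40 in FK506 and 10.89 ± 0.061 in vehicle rats (SD, n = 6 and 5, exact permutation p = 0.21). The kidney is a mixture of cell types, and fewer cells of a type cannot be told apart from less RNA per cell.

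After 28 doses the distal convoluted tubule genes Calb1, Slc8a1 and Slc12a3 and the growth factor gene Egf were lower in the FK506 rats, and the injury genes Havcr1, Lcn2, Spp1, Clu and Timp1 were higher. In all, 463 of 10663 tested genes were called (4.34%), 274 higher (2.57%) and 189 lower (1.77%). Of the same 10663 genes, 1889 had an unadjusted p of limma under 0.05, the reference for list counts at that threshold. Most differences were small: the median size among called genes was 0.38, and 13 genes rose and 13 fell by more than 2-fold. Of the called genes, 161 were higher and 100 were lower with no overlap between the rats of the 2 groups. Among all tested genes, 2.67% lay higher and 1.85% lower without overlap (4.52% in all). The median change of all tested genes was 0.02. The call count depended on single rats, being 256 without FK506 rat 2 and 305 without vehicle rat 2, and it was 253 in a fit to the 11 arrays alone.

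**Figure D1:**
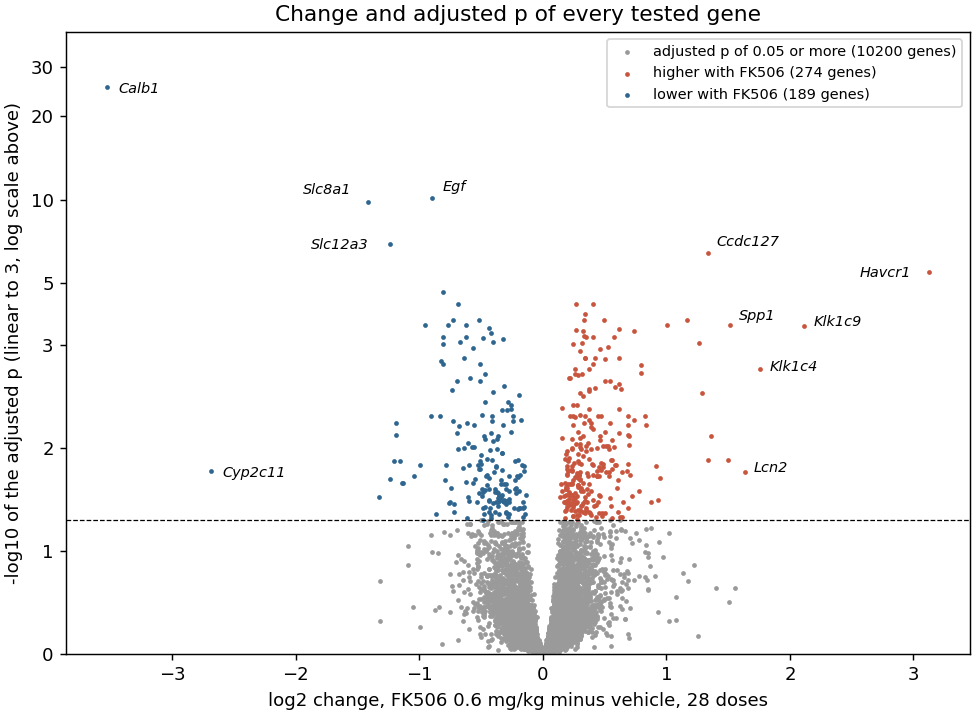
Change after 28 doses of FK506 0.6 mg/kg (log2, horizontal) against the -log10 of the limma adjusted p (vertical, linear up to 3 and logarithmic above) for each of 10663 tested genes. Calb1 lies apart at the lower end of the change axis and Havcr1 at the upper end, and the dashed line marks an adjusted p of 0.05.

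The fall of Calb1 was the largest in either direction. Calb1 encodes calbindin-D28k, the calcium buffer of distal convoluted and connecting tubule cells, and the array held 1 probe set for it. Its level in the vehicle rats 1 to 5 was 12.14, 12.25, 12.26, 11.55 and 12.55, and in the 6 FK506 rats it was 8.35 at the lowest, 8.60 at the median and 8.92 at the highest. The highest FK506 rat thus lay far below the lowest vehicle rat. The mean was 8.63 ± 0.22 (SD, n = 6) against 12.15 ± 0.37 (SD, n = 5), an 11.5-fold lower level (log2 change -3.52, SE 0.21, adjusted p = 4.175e-26).

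Slc8a1 encodes the sodium-calcium exchanger NCX1, which moves calcium out of distal tubule cells on the blood side. Its vehicle levels were 9.19, 9.45, 9.20, 8.78 and 9.70, and the FK506 rats lay between 7.63 and 8.24 with a median of 7.75. No FK506 rat reached the lowest vehicle rat. The means were 7.85 ± 0.25 and 9.27 ± 0.34 (SD, n = 6 and 5), a 2.67-fold lower level (-1.42, SE 0.16, adjusted p = 1.473e-10).

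Slc12a3 encodes the thiazide-sensitive sodium-chloride cotransporter NCC, the defining transporter of the distal convoluted tubule. The vehicle rats had levels of 9.78, 10.04, 9.74, 9.22 and 10.46, and the FK506 rats 8.11 at the lowest, 8.61 at the median and 9.05 at the highest. Again the groups did not overlap, and vehicle rat 4 was the lowest and vehicle rat 5 the highest of the controls for each of Calb1, Slc8a1 and Slc12a3. The mean was 8.62 ± 0.34 against 9.85 ± 0.45 (SD, n = 6 and 5), or 2.35-fold lower (-1.23, SE 0.17, adjusted p = 1.207e-07).

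Egf encodes the precursor of epidermal growth factor, made in the kidney by the distal convoluted tubule and the thick ascending limb. Its 5 vehicle levels were 13.13, 13.21, 13.19, 13.23 and 13.24, close together and above the 95th percentile of all tested genes. The FK506 rats lay at 12.09 to 12.49 with a median of 12.30, all below the vehicle rats. The means were 12.31 ± 0.17 and 13.20 ± 0.043 (SD, n = 6 and 5), a 1.86-fold lower level (-0.90, SE 0.098, adjusted p = 7.125e-11).

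Wnk1, a kinase gene upstream of NCC of which the kidney makes a short form in the distal convoluted tubule, had vehicle levels of 11.67, 12.08, 11.60, 11.50 and 12.05 and FK506 levels of 10.94 to 11.23. These groups did not overlap either, and the change was -0.68 (SE 0.12, adjusted p = 5.951e-05), with -0.84 at the gene's other probe set. The array labels do not say which transcript form each probe set detects. Cnnm2, a magnesium transport regulator, fell by 0.47 (SE 0.10, adjusted p = 0.001919), and Fxyd2, the gamma subunit of the sodium pump, fell by 0.15 (SE 0.046, adjusted p = 0.03779), both without overlap. Fxyd2 was called in 9 of 21 alternatives, and its change was -0.077 (adjusted p = 0.49) with no quantile normalization. With these, 7 of 19 tested genes of the distal convoluted tubule list were called lower and 0 higher, beside 1.77% lower among all tested genes. All lists were chosen with earlier results of these data known, so list counts here and below are descriptions and not independent tests. The median of the list was -0.23, and its mean level was 8.85 to 9.04 in the FK506 rats and 9.32 to 9.56 in the vehicle rats.

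The other 12 genes of the list did not pass the test. The calcium channel gene Trpv5 changed by 0.11 (adjusted p = 0.8052) and S100g, the gene of the smaller calbindin-D9k, by 0.02 (adjusted p = 0.9761). The values were -0.23 for the plasma membrane calcium pump gene Atp2b1 (adjusted p = 0.1074), 0.18 for Klhl3, which encodes an adaptor that marks WNK kinases for degradation, and 0.00 for the potassium channel gene Kcnj16. Trpm6, Wnk4, Pvalb and Kcnj10 were among the listed genes that were not tested.

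**Figure D2:**
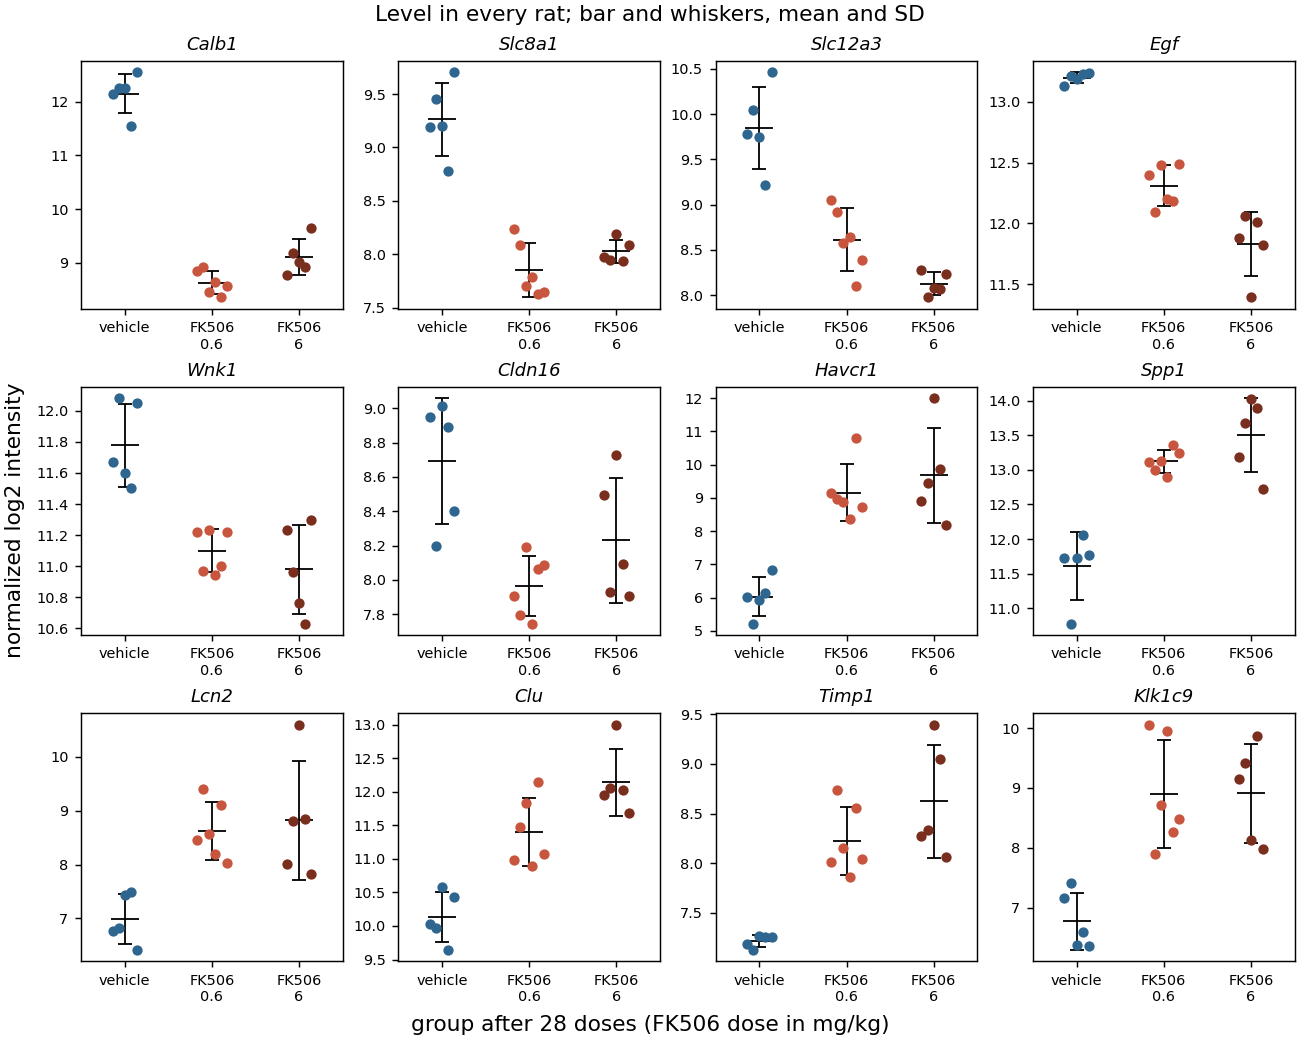
Normalized log2 intensity in every rat after 28 doses (vertical, separate axis for each gene) for vehicle, FK506 0.6 mg/kg and FK506 6 mg/kg, with the mean and SD of each group as bar and whiskers. For each of the 12 genes drawn, the FK506 0.6 mg/kg rats do not overlap the vehicle rats, for example 8.35 to 8.92 against 11.55 to 12.55 for Calb1.

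The start regions of members are shown because calcineurin acts on genes through NFAT, whose core motif is GGAAA on either strand. The 250 bases before the annotated start were read from RefSeq (assembly GRCr8) for 5 of the genes that differed, written 5' to 3' on the strand of the gene, with NFAT cores in capitals (TTTCC is the core on the other strand). The table used held no entry for Calb1. The regions were chr19:10675051-10675300 (minus strand) for Slc12a3, chr6:19023309-19023558 (plus) for Slc8a1, chr2:220976298-220976547 (minus) for Egf, chr10:31629528-31629777 (plus) for Havcr1 and chr14:5619805-5620054 (minus) for Spp1.
Slc12a3: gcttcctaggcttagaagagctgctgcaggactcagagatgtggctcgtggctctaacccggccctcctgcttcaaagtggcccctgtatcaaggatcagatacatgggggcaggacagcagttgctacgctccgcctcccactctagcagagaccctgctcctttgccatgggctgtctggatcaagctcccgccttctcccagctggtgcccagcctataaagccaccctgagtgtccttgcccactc
Slc8a1: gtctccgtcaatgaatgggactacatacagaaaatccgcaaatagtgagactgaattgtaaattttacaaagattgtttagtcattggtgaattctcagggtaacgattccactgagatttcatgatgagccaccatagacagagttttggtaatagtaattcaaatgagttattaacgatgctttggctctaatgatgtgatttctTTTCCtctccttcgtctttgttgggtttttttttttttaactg
Egf: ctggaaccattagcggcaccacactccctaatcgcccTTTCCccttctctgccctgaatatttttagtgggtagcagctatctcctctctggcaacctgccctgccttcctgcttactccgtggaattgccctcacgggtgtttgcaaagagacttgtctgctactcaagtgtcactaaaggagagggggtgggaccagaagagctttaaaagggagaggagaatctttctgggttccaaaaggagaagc
Havcr1: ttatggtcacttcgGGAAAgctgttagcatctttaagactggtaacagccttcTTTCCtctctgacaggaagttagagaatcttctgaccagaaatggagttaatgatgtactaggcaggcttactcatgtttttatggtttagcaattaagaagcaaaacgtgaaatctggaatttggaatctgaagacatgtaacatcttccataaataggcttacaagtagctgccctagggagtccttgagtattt
Spp1: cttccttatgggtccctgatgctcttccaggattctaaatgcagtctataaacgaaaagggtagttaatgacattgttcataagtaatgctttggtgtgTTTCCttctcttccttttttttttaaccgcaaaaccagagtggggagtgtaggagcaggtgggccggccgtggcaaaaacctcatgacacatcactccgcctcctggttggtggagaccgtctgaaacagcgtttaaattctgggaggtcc
The Slc12a3 region held no NFAT core, the regions of Slc8a1, Egf and Spp1 held 1 each and that of Havcr1 held 2. The AP-1 motif TGANTCA, the site of the partner that NFAT often binds with, was in none of them. Slc12a3 had a TATAAA box 32 bases before its start, and Spp1 had a TATAAA match 204 bases before its start. NFAT cores are common: 56.9% of all 33469 rat start regions of this length held at least 1, and 6.34% held TGANTCA. Among genes with a region in the table, a core was found for 53.8% of all tested genes, 55.2% of those called higher (127 of 230) and 44.3% of those called lower (70 of 158). A match is only a match of letters.

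Of 13 tested genes of the thick ascending limb, the segment before the distal convoluted tubule, 4 were called lower and 0 higher, beside 1.77% lower among all tested genes, with a list median of -0.25. Of the 4, Egf is shared with the distal convoluted tubule list. Cldn16, the claudin of the paracellular magnesium and calcium route, had vehicle levels of 8.95, 8.20, 9.01, 8.89 and 8.40 and FK506 levels from 7.75 to 8.19 with a median of 7.98. The nearest rats of the 2 groups almost touched but did not overlap (-0.73, SE 0.17, adjusted p = 0.00553). Slc12a1, the furosemide-sensitive cotransporter NKCC2, fell by 0.44 (SE 0.13, adjusted p = 0.03286) and the phosphatase inhibitor gene Ppp1r1a fell by 0.57 (SE 0.14, adjusted p = 0.009845), both with overlap. Umod, encoding uromodulin, changed by -0.17 (adjusted p = 0.06215) and the potassium channel gene Kcnj1 by -0.45 (adjusted p = 0.05547).

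In the list of vitamin D and calcium-phosphate handling, 2 of 20 tested genes were called lower, beside 1.77% lower among all tested genes. They were the same Calb1 and Slc8a1. The vitamin D receptor gene Vdr changed by -0.59 (adjusted p = 0.05443), and Cyp27b1, which makes active vitamin D, by 0.54 (adjusted p = 0.3465). Gc, the vitamin D binding protein gene, was at 10.60 to 10.81 in the vehicle rats and at 9.14 to 10.30 in the FK506 rats, with no overlap, yet the test gave -1.09 (SE 0.39, adjusted p = 0.09037). The proximal phosphate transporter gene Slc34a1 changed by 0.00 (adjusted p = 0.9959). No gene of this list was called higher.

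Many genes known to rise in injured tubules were higher. Of 27 tested genes of the injury list, 11 were called higher and 1 lower, beside 2.57% higher among all tested genes, and the median of the list was 0.45. Its mean level was 8.94 to 9.36 in the FK506 rats and 8.32 to 8.75 in the vehicle rats. Without FK506 rat 2, 8 were called higher and 0 lower, and with the arrays of 28 doses alone 6 and 0.

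Havcr1 encodes KIM-1, a surface receptor that injured proximal tubule cells make. Its vehicle levels of 6.03, 5.22, 5.93, 6.15 and 6.84 were near the lower end of the tested genes, whose lowest mean level was 5.75. The FK506 rats were at 8.38 at the lowest, 8.93 at the median and 10.81 at the highest, the last being rat 5. All of them lay above the highest vehicle rat. The means were 9.15 ± 0.85 and 6.03 ± 0.58 (SD, n = 6 and 5), an 8.7-fold ratio of the offset intensities (3.12, SE 0.47, adjusted p = 3.146e-06). Because the vehicle level was dim and the data used here hold no detection calls, the size of this ratio is uncertain, and the change was 3.50 with an offset of 1.

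Spp1, encoding osteopontin, a secreted phosphoprotein, was at 11.72, 10.78, 11.72, 12.06 and 11.77 in the vehicle rats and at 12.90 to 13.36 in the FK506 rats, with a median of 13.11. The groups did not overlap, and the level was 2.85-fold higher (1.51, SE 0.28, adjusted p = 0.000293). Clu, the gene of the extracellular chaperone clusterin, was at 10.03, 9.97, 10.58, 9.65 and 10.43 against 10.89 to 12.14, and rose by 1.27 (SE 0.26, adjusted p = 0.0008915) without overlap. Lcn2, the gene of the urinary injury marker NGAL, was at 6.76, 6.83, 7.43, 7.49 and 6.42 against 8.03 to 9.40 and was 3.11-fold higher (1.64, SE 0.45, adjusted p = 0.01727). Its lowest FK506 rat was still above the highest vehicle rat.

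Timp1, an inhibitor of matrix metalloproteinases, was nearly constant in the vehicle rats, at 7.19, 7.13, 7.26, 7.26 and 7.26, and lay at 7.86 to 8.74 in the FK506 rats. The groups were apart and the change was 1.01 (SE 0.19, adjusted p = 0.0002983), a 2.01-fold rise. Gpnmb, a membrane glycoprotein gene of macrophages and injured epithelium, rose by 1.29 (SE 0.29, adjusted p = 0.002955), and the tight junction gene Cldn4 by 0.83 (SE 0.19, adjusted p = 0.00493), neither with overlap. The transcription factor genes Myc and Atf3 rose by 1.17 (SE 0.21, adjusted p = 0.0002007) and 0.93 (SE 0.28, adjusted p = 0.03242). The vehicle mean of Atf3, 5.32, lay below the lowest mean of the tested genes, 5.75, so the size of its change is uncertain. Atf3 was called in 13 of 21 alternatives, with changes from 0.76 to 1.305. Krt8 (0.40, adjusted p = 0.01433) and S100a6 (0.64, adjusted p = 0.01727) also passed, with overlapping groups.

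The 1 list member called lower was Tff3, a mucosal peptide gene (-0.55, adjusted p = 0.02014). Other injury genes did not pass: Vim changed by 0.32 (adjusted p = 0.2405), Cd44 by 0.31 (adjusted p = 0.4018), Vcam1 by -0.06 (adjusted p = 0.8817) and Krt18 by 0.07 (adjusted p = 0.8439). Hmox1, the heme oxygenase gene, changed by 1.08 (adjusted p = 0.4711). Of 24 tested immediate early genes 3 were called higher, beside 2.57% higher among all tested genes, namely Atf3, Myc and Klf6 (0.68, adjusted p = 0.01666). Without FK506 rat 2 this count was 1, and with no quantile normalization 2 were called higher and 1 lower.

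Of 26 tested genes of extracellular matrix and fibrosis, 2 were called higher and 0 lower, beside 2.57% higher among all tested genes, with a median of 0.04. The 2 were Timp1 and the crosslinking enzyme gene Loxl1 (0.71, adjusted p = 0.01855). Col1a1 changed by 0.03 (adjusted p = 0.9713), Fn1 by 0.27 (adjusted p = 0.4468) and Tgfb1 by 0.43 (adjusted p = 0.1595). Acta2, the smooth muscle actin gene, was called lower (-0.43, adjusted p = 0.03844), a call kept in 10 of 21 alternatives. It was the 1 called gene of 14 in the vascular smooth muscle list, beside 1.77% lower among all tested genes.

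Among the largest rises were 2 tissue kallikrein genes. Klk1c9 was at 7.15, 7.40, 6.38, 6.59 and 6.35 in the vehicle rats and at 7.90 to 10.06 in the FK506 rats, whose median was 8.60, and Klk1c4 was at 9.17 to 10.02 against 10.86 to 11.84. Neither pair of groups overlapped, the levels being 4.34-fold (2.12, SE 0.40, adjusted p = 0.0003179) and 3.39-fold higher (1.76, SE 0.38, adjusted p = 0.001733). Rat kallikreins form a family of near-identical genes, so which copies the probe sets detect is uncertain, and Klk1 itself changed by 0.27 (adjusted p = 0.3575). Fga, the fibrinogen alpha chain gene, rose by 1.50 (SE 0.39, adjusted p = 0.01322), with 0.90 at its other probe set. Ccdc127 rose by 1.33 (SE 0.19, adjusted p = 3.882e-07), with smaller values of 0.76 and 0.53 at its other probe sets. Sbf2 had 1.36 (adjusted p = 0.007627) at its brightest probe set but -0.20 and 0.07 at the others, which disagree with it.

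Cyp2c11, a male-specific steroid hydroxylase known best from the liver and present in proximal tubule, showed the second-largest fall. It was at 11.07, 10.99, 11.27, 10.27 and 11.43 in the vehicle rats and spread from 6.75 to 10.33 in the FK506 rats, with a median of 8.32. FK506 rat 3, at 10.33, lay above the lowest vehicle rat, so the groups overlapped. The change was -2.68 (SE 0.73, adjusted p = 0.01696), or 6.42-fold lower. Prlr, the prolactin receptor gene, fell by 1.13 (SE 0.32, adjusted p = 0.0222). Cyp2c11 and Prlr were the 2 called among 14 sex and growth hormone dependent genes, beside 1.77% lower among all tested genes.

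Of 31 tested proximal tubule identity genes, 1 was called higher and 3 lower, beside 4.34% of all tested genes called either way. In this list 12 had an unadjusted p of limma under 0.05, beside 1889 of all 10663 tested genes. The list median was -0.07, and the mean level of the list in each FK506 rat (12.07 to 12.26) lay below that in each vehicle rat (12.29 to 12.37). That mean counts every member alike and so carries the large fall of Cyp2c11 (-2.68). The mean without this gene was not computed. Besides Cyp2c11, the creatine synthesis gene Gatm fell by 0.60 (adjusted p = 0.01455) and the amino acid transporter gene Slc7a13 fell by 0.40 (SE 0.081, adjusted p = 0.0008352). The cystine transporter gene Slc7a9 rose by 0.39 (adjusted p = 0.04285), a call kept in 10 of 21 alternatives. Rgn, encoding the calcium-binding protein regucalcin, fell by 0.95 (SE 0.18, adjusted p = 0.0002847), from 12.59 to 12.95 in the vehicle rats to 11.55 to 12.44 in the FK506 rats. The glutathione genes Gsta3 (-0.74, SE 0.16, adjusted p = 0.002752) and Gclm (-0.42, SE 0.081, adjusted p = 0.0004901) were the 2 called of 23 oxidative stress genes, both lower.

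Further genes fell by more than 2-fold. Slc25a25, a mitochondrial ATP-magnesium/phosphate carrier gene, fell by 1.18 (SE 0.29, adjusted p = 0.007454) and Ddit4l, an inhibitor of mTOR signalling, fell by 1.18 (SE 0.28, adjusted p = 0.005734), both without overlap. The glucagon receptor gene Gcgr fell by 1.04 (adjusted p = 0.01873). Urah fell by 1.33 (adjusted p = 0.03006), but its FK506 mean of 4.88 lay below the lowest mean of the tested genes, its change was -2.10 with an offset of 1, and it was called in 14 of 21 alternatives. Cyp8b1 fell by 1.24 (adjusted p = 0.02006) and Gtpbp4 by 1.14 (adjusted p = 0.02175). Abhd3 had -1.21 (adjusted p = 0.01336) at its brightest probe set and 0.04 at the other. Ptgs2, the gene of cyclooxygenase-2 in the macula densa and thick limb, fell by 1.15 (SE 0.30, adjusted p = 0.01335), although its rats overlapped (4.78 to 6.82 against 5.73 to 7.90). Its FK506 mean of 5.55 also lay below the lowest mean of the tested genes, so the size of its change is uncertain. Ptgs2 was called in 16 of 21 alternatives, with changes from -1.56 to -0.86.

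Of 27 tested ribosomal protein genes, 13 were called higher and 0 lower, beside 2.57% higher among all tested genes, with small changes and a median of 0.16. Rpl11 rose by 0.27 (SE 0.046, adjusted p = 5.951e-05) and Rpl5 by 0.25 (SE 0.050, adjusted p = 0.0009396). The mean level of the list was 12.60 to 12.78 in the FK506 rats and 12.44 to 12.54 in the vehicle rats with no overlap. The count moved with the fit, being 2 in the 11 arrays alone, 4 in the arrays of 28 doses, 6 without FK506 rat 2, 8 without vehicle rat 2 and 18 with no quantile normalization.

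In the calcineurin and NFAT list, the drug's own target pathway, 0 of 15 tested genes passed limma in either direction. This count was near the 4.34% of all tested genes, and the list median was -0.03. The list held 2 genes at an unadjusted p of limma under 0.05, beside 1889 of all 10663 tested genes. The catalytic subunit gene Ppp3ca changed by -0.03 (adjusted p = 0.848) and Rcan1, a feedback inhibitor of calcineurin whose transcription NFAT drives, by -0.41 (adjusted p = 0.1119). Of 16 tested immunophilin genes 1 was called, Fkbp1b, the FKBP12.6 gene, which fell by 0.51 (SE 0.14, adjusted p = 0.01591) with overlapping groups. Fkbp1a, the gene of FKBP12, changed by -0.08 (adjusted p = 0.6908). Calcineurin activity was not measured.

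In the macrophage and myeloid list 1 of 20 tested genes was called, beside 4.34% of all tested genes. It was Cd14 (0.55, adjusted p = 0.03069), a call kept in 10 of 21 alternatives. The list's mean level was 7.86 to 8.79 in the FK506 rats, the highest being rat 2, against 7.71 to 8.20 in the vehicle rats. The lymphocyte, MHC class II and interferon lists had 0 called genes of 8, 15 and 22 by limma. They held 1, 0 and 1 at an unadjusted p of limma under 0.05, beside 1889 of all 10663 tested genes. Defining T and B cell genes were dim: Cd3e lay at 5.05 to 5.96 in the FK506 and 5.27 to 5.85 in the vehicle rats, and Cd79b at 4.24 to 4.79 and 4.26 to 5.24. Of 5 tested blood genes 0 were called by limma and 3 had an unadjusted p under 0.05, with a median of 0.66, a value of -0.03 for Slc4a1 and a list level of 8.24 to 8.81 against 7.95 to 8.24. Hbb, the globin gene, was at 11.88 to 12.84 against 11.20 to 11.78 without overlap (0.75, SE 0.25, adjusted p = 0.06723). The part of blood and myeloid RNA in the other results was not tested.

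The remaining lists are given by their counts, beside 4.34% of all tested genes called. By limma none was called among 19 principal cell, 12 podocyte, 16 endothelial, 19 cholesterol synthesis, 21 fatty acid oxidation, 18 clock, 39 respiratory chain, 3 adrenal and 9 fat genes. At an unadjusted p of limma under 0.05 these lists held 2, 1, 2, 2, 2, 0, 6, 0 and 2 genes. The count over all 10663 tested genes at that threshold was 1889. Single called genes were Car2 (0.21) of 13 intercalated cell genes, Ccnd2 (-0.49) of 24 cell cycle genes and Ptgs2 of 9 renin-angiotensin genes. The others were Rgn of 13 liver genes and Myh1 (-0.30) of 4 skeletal muscle genes. The Myh1 probe set was at 12.95 in vehicle rats, where no other listed muscle gene exceeded 7.78 (Casq1), so what it detects is uncertain. Myh1 was called in 7 of 21 alternatives. Of 25 unfolded protein and amino acid stress genes 2 were higher, Atf3 and Sesn2 (0.46). Of 21 glucose and insulin genes Akt1 (0.29) and Akt2 (0.35) were higher and Gcgr lower. Other probe sets disagreed, with 0.07 and -0.39 for Akt1 and -0.03 and -0.03 for Akt2. Of 30 proteasome genes Psmb4 (0.19) was higher and Psmd13 (-0.28, called in 6 of 21 alternatives) lower.

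**Figure D3:**
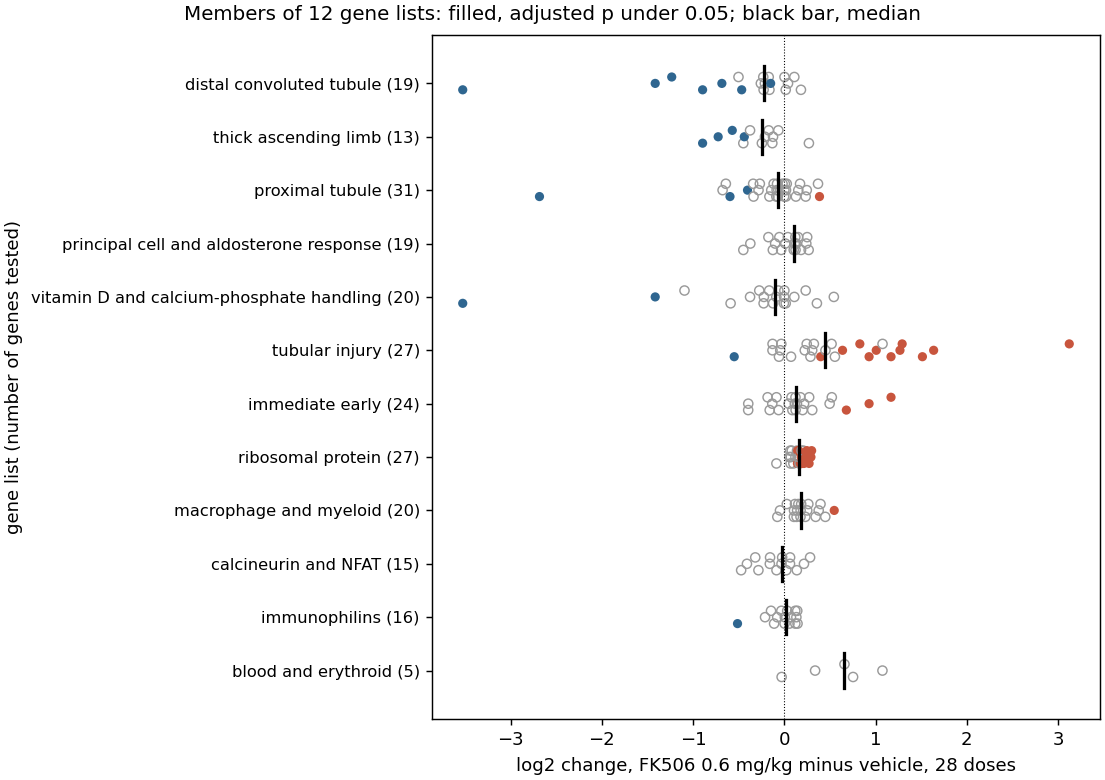
Log2 change after 28 doses of FK506 0.6 mg/kg for each tested gene of 12 lists, filled where the limma adjusted p was under 0.05, with the median of each list as a black bar. Called genes of the distal convoluted tubule list (7 of 19) all lie below 0, and 11 of the 12 called genes of the tubular injury list lie above 0.

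The same genes were set against the FK506 6 mg/kg rats at 28 doses to ask which levels differed between doses. The direct contrast of 6 against 0.6 mg/kg called 170 genes (1.59%), 62 higher (0.581%) and 108 lower (1.01%) at the higher dose, only 1 of them by more than 2-fold. That gene was Slc51a, a subunit of the basolateral bile acid and steroid exporter, at -1.20 (adjusted p = 0.019). Its call was lost with the hybridization controls as covariate (adjusted p = 0.14), with the arrays of 28 doses or the compared groups alone, and without rat 3 of 6 mg/kg or rat 6 of 0.6 mg/kg. Calb1, Slc8a1, Slc12a3, Havcr1, Spp1, Lcn2 and Timp1 were not called in this contrast.

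For Calb1 the difference between doses was 0.48 (95% confidence interval 0.06 to 0.90, adjusted p = 0.24), the 6 mg/kg rats lying at 8.76, 9.19, 9.00, 8.92 and 9.65. For Slc12a3 it was -0.49 (-0.82 to -0.16, adjusted p = 0.115), for Slc8a1 0.18 (-0.14 to 0.50) and for Havcr1 0.52 (-0.41 to 1.45). The intervals are for single genes and not adjusted. For Spp1 the interval ran from -0.18 to 0.93 and for Lcn2 from -0.69 to 1.08. With bounds this wide, equal levels at the 2 doses were not shown.

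Egf and Cldn4 were called between the doses, although both calls were lost without rat 3 of 6 mg/kg. Egf was at 11.88, 12.06, 11.39, 12.01 and 11.82 at 6 mg/kg, all below the lowest rat at 0.6 mg/kg, a further difference of -0.48 (SE 0.098, adjusted p = 0.003). Cldn4 was 0.84 higher (SE 0.19, adjusted p = 0.011), and the MHC class II gene RT1-Da, which at 0.6 mg/kg differed from vehicle by 0.00 (adjusted p = 0.9928), was 0.82 higher (SE 0.19, adjusted p = 0.0097). Aplp1, an amyloid precursor-like gene, was 0.85 lower on the log2 scale (change -0.85, SE 0.17, adjusted p = 0.0026). The level of the hybridization controls, bacterial and phage transcripts added at hybridization, was 9.43 (7.85 to 10.65) in the 6 mg/kg group and 10.62 (10.03 to 11.05) in the 0.6 mg/kg group. With that level as a covariate 17 genes were called, and Egf had -0.36 (adjusted p = 0.14), Cldn4 0.66 (adjusted p = 0.19) and RT1-Da 0.84 (adjusted p = 0.067). The RT1-Da call was also lost without rat 1 of 6 mg/kg. With the arrays of 28 doses alone 11 genes were called, these 3 not among them, and 0 by limma with the 2 groups alone (1381 at an unadjusted p under 0.05).

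Earlier days of the 0.6 mg/kg dose were set against their own vehicle rats to ask when these genes differed. After 1 dose 0 genes were called by limma, with 373 at an unadjusted p under 0.05. After 7 doses 206 were called (1.93%), 96 higher (0.9%) and 110 lower (1.03%). After 14 doses 93 were called (0.872%), 40 higher (0.375%) and 53 lower (0.497%). In the distal convoluted tubule list 5 genes were called lower after 7 doses and 5 after 14, whereas in the injury list 0 and 1 were called higher.

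Calb1 changed by -0.50 after 1 dose (adjusted p = 0.9998), -2.07 after 7 (adjusted p = 3.894e-09), -2.66 after 14 (adjusted p = 2.858e-14) and -3.52 after 28. Its rats after 7 doses of FK506 were at 10.04, 9.86, 9.99 and 10.95 against 12.67, 11.99, 12.31 and 12.15 in vehicle, already without overlap. Slc12a3 changed by -0.08, -1.34, -1.54 and -1.23 over the same days, called at each but the first, and Egf by -0.12, -0.48, -0.58 and -0.90, likewise. Slc8a1 gave -0.23, -0.72, -1.04 and -1.42.

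Havcr1 changed by -0.19 after 1 dose and -0.16 after 7 (adjusted p = 0.939), then by 2.87 after 14 (adjusted p = 0.002623). After 7 doses the FK506 rats were at 5.84, 6.96, 6.29 and 6.33 and the vehicle rats at 6.10, 6.78, 6.32 and 6.86, fully mixed. After 14 doses they were at 8.68, 7.89, 8.87 and 9.18 against 6.79, 5.23, 5.78 and 5.36, fully apart. Spp1 gave 0.18, -0.47, 0.86 and 1.51, and Timp1 -0.29, -0.68, 0.19 and 1.01, both called only after 28 doses.

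**Figure D4:**
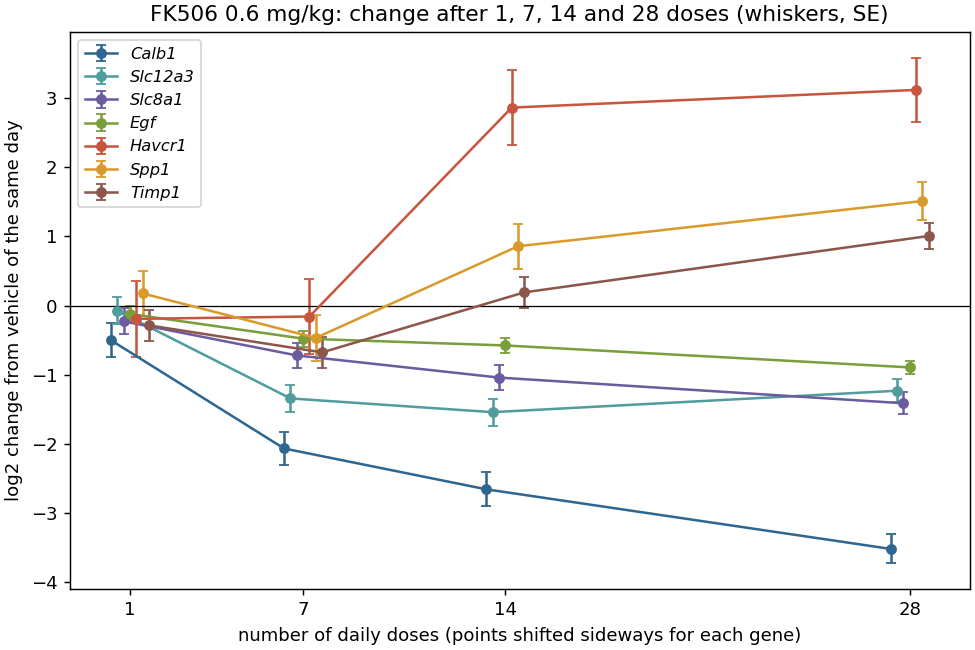
Log2 change of 7 genes from the vehicle rats of the same day (vertical, whiskers SE of the limma fit) after 1, 7, 14 and 28 daily doses of FK506 0.6 mg/kg (horizontal). Calb1, Slc12a3, Slc8a1 and Egf lie below 0 from 7 doses on, and Havcr1 is near 0 after 7 doses (-0.16) and high after 14 (2.87).

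The difference between the effect at 28 doses and at 7 doses was tested directly and called 137 genes (1.28%), 91 in the upward direction (0.853%) and 46 in the downward one (0.431%). Havcr1 differed by 3.28 (SE 0.72, adjusted p = 0.0071), Spp1 by 1.98 (SE 0.43, adjusted p = 0.0070), Timp1 by 1.69 (SE 0.29, adjusted p = 0.00027) and Atf3 by 1.82 (adjusted p = 0.0115). Calb1 differed by -1.45 (SE 0.32, adjusted p = 0.0079), whereas the difference for Slc12a3 was 0.11 (95% confidence interval -0.40 to 0.62, adjusted p = 0.90). Hbb also differed, by 1.45 (adjusted p = 0.036), and the Gapdh 3'/5' ratio was 0.73 in the vehicle and 0.44 in the FK506 rats at 7 doses. With that ratio as a covariate 31 genes were called, and the count was 50 without FK506 rat 2 of 28 doses and 35 in the compared groups alone, while Havcr1, Timp1, S100a6 and Calb1 passed under each of 29 alternatives. Atf3 lost its call with that covariate (adjusted p = 0.056), with the compared days alone and without FK506 rat 4 of 7 doses.

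Between 28 and 14 doses 1 gene differed (0.00938%), with 950 at an unadjusted p under 0.05. It was Vkorc1, the vitamin K epoxide reductase gene, which rose by 0.40 after 28 doses (SE 0.068, adjusted p = 5.951e-05) and differed by 0.54 between the days (SE 0.10, adjusted p = 0.0129). The call was absent without FK506 rat 2 of 28 doses, without FK506 rat 1 or 4 of 14 doses and without vehicle rat 2 of 14 doses. For Calb1 this difference was -0.86 (95% confidence interval -1.51 to -0.22, adjusted p = 0.35), for Havcr1 0.26 (-1.18 to 1.69, adjusted p = 0.96) and for Timp1 0.82 (0.24 to 1.39, adjusted p = 0.3171).

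The other drugs at 28 doses were compared with the same 5 vehicle rats, so their values share those controls and are given side by side only. CsA, which blocks calcineurin through cyclophilin rather than FKBP12, gave Calb1 changes of -0.44 at 2.5 mg/kg (adjusted p = 0.9993) and -3.39 at 25 mg/kg (adjusted p = 6.372e-22), and Slc12a3 changes of 0.05 and -1.76. Rapa, which binds FKBP12 but acts on mTOR, gave Calb1 changes of -0.19 at 1 mg/kg (adjusted p = 0.6708) and 0.02 at 10 mg/kg (adjusted p = 0.9688), and Slc12a3 changes of -0.10 and -0.14. Havcr1 changed by -0.33 and 4.42 with CsA and by 1.30 (adjusted p = 0.06093) and 0.91 (adjusted p = 0.1911) with Rapa. Cyp2c11 changed by -2.95 (adjusted p = 0.003742) and -4.26 (adjusted p = 7.082e-06) with Rapa. Over all tested genes 0, 2255, 1044 and 1683 were called for CsA 2.5, CsA 25, Rapa 1 and Rapa 10 mg/kg (0%, 21.1%, 9.79% and 15.8%). The array of CsA 25 mg/kg rat 3 held 5273 zero intensities and had a mean correlation of 0.87 with its group. The CsA values include it, and without it the main comparison called 493 genes in place of 463. The hybridization controls averaged 9.94 in the Rapa 1 mg/kg group and 10.89 in vehicle. For CsA 2.5 mg/kg 425 were at an unadjusted p under 0.05.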

How the data were processed

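Members and gene lists were chosen with earlier results of these data known. Linear intensities per probe set on Affymetrix Rat 230 2.0 arrays were deposited by the authors. Per the labels' protocols, biotin-labelled cRNA made from 1 µg of total RNA in 1 amplification cycle was hybridized and scanned with the maker's operating software. The probe summary and scaling are not given in the sources used here. Of 31099 probe sets, 57 controls were set aside. In the platform annotation, 20826 had 1 gene symbol, 436 several and 9780 none; 14167 of 14217 genes matched RefSeq. Intensities plus 16 were taken to log2 and quantile-normalized. The offset understates changes of dim genes. Each gene was described by its probe set with the highest mean, and the dimmest 25% of genes were left out, which left 10663. limma 3.58.1 (R 4.3.3) fitted 28 group means to all 120 arrays (92 residual degrees of freedom, two-sided tests, Benjamini-Hochberg). Named genes were the called genes with the largest changes, up to 14 a direction, whose rats all lay on 1 side of the vehicle mean, a fixed gene list, and called or largest members of each of 35 lists. In the other contrasts up to 6 called genes a direction were taken by size. Of these, the text gives the few needed. Scripts were tested on simulated data. The labels give no batch or scan date, and their rat numbers were read as separate animals. The number of arrays limits precision. Alternatives covered normalization, offset, filter, probe sets, variance trend, arrays fitted, quality covariates and each rat left out.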

Additional observations from a re-analysis of the deposited data

Results flagged for a closer look

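The levels of 104 genes were examined in each of the 2 groups, giving 208 sets of levels. Of these sets, 15 held a rat that stood apart from the others by Dixon's criterion, where chance gives about 1 in 20. All sets come from the same 11 rats, so they are not independent. Among genes that rose, these were Havcr1 in FK506 rat 5 (10.81), Fga in the same rat (10.48), Sbf2 in the same rat (6.138), Ccdc127 in FK506 rat 4 (7.478), Akt2 in FK506 rat 1 (7.981) and Spp1 in vehicle rat 2 (10.78). Among genes that fell, they were Prlr in FK506 rat 1 (9.80), Abhd3 in FK506 rat 3 (9.313) and Slc7a13 in vehicle rat 4 (13.75). Ribosomal and proteasome genes gave Rpl6 in vehicle rat 2 (12.09), Rpl5 in FK506 rat 1 (13.08) and Psmb4 in FK506 rat 2 (12.04). The other three were Trpv5 in FK506 rat 6 (5.593), RT1-Da in vehicle rat 5 (11.6) and the B cell chemokine gene Cxcl13 in FK506 rat 2 (12.35), whose group change of 0.93 did not pass the test (adjusted p = 0.40) and was 0.16 without that rat.

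The effect of FK506 0.6 mg/kg differed between days by limma's test of the difference for 1 gene between 28 and 14 doses and for 137 genes between 28 and 7 doses. The 1 gene was Vkorc1 (0.54). Among the named genes followed through the alternatives, the effect was higher at 28 than at 7 doses for Havcr1 (3.28), Spp1 (1.98), Atf3 (1.82), Timp1 (1.69), S100a6 (1.23), Cldn4 (1.11), Akt1 (0.61), Akt2 (0.55), Rpl22 (0.45) and Rpl11 (0.25), and lower for Calb1 (-1.45) and Vdr (-1.15). Hbb, named above as higher at 28 doses in this test, was not among the genes so followed. With the Gapdh ratio as covariate, which at 7 doses was 0.73 in vehicle and 0.44 in FK506 rats, the calls of Atf3, Cldn4, Akt1, Akt2, Rpl11 and Vdr were lost, and Vdr had -0.52 (adjusted p = 0.36). Of 29 alternatives, Rpl11 was called in 9, Cldn4 in 15 and Vdr in 19. Akt1 and Akt2 are given at their brightest probe sets, whose change after 28 doses other probe sets did not share. Different rats were killed on each day, 4 per group at 7 and 14 doses.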

How the results depend on the processing

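No paired analysis was possible because the labels give rat numbers that are not shared between groups. Of 104 genes examined under 21 alternatives, 74 were called; 26 of these kept the call under each alternative, 48 lost it under at least 1, and 0 changed direction. Calb1, Slc8a1, Slc12a3, Egf, Havcr1, Spp1, Clu and Timp1 were among the 26; Lcn2 passed in 18, Atf3 in 13 and Slc12a1 in 12. The 463 calls after 28 doses became 213 with the arrays of 28 doses alone and 253 with the compared groups alone, of which 183 were shared, and ranged from 256 to 459 when 1 rat was left out. With no quantile normalization 577 were called, 64% of them higher in place of 59.2%, and with all probe sets 660. With the hybridization controls as covariate 401 were called, and Atf3, Slc12a1, Cd14 and Acta2 were among the genes that lost the call. The 170 calls between doses became 257 with no quantile normalization, 11 with the arrays of 28 doses alone, 0 with the compared groups alone and 17 with hybridization controls as covariate, and ranged from 65 (without rat 3 of 6 mg/kg) to 290 (without rat 2 of 6 mg/kg) when 1 rat was left out; without rats 1, 3, 4 and 5 of 0.6 mg/kg they were 113, 88, 93 and 106, and without rat 1 of 6 mg/kg 112. The 1 call between 28 and 14 doses became 7 with all probe sets and 0 with the compared days or the compared groups alone, and ranged from 0 to 9 when 1 rat was left out, being 4 without vehicle rat 5 of 28 doses, 2 without FK506 rat 3 of 14 doses and 3, 5 and 9 without vehicle rats 1, 3 and 4 of 14 doses. The 137 calls between 28 and 7 doses became 227 with no quantile normalization, 231 with all probe sets, 71 with the compared days alone, 35 with the compared groups alone and 31 with the Gapdh ratio as covariate, and ranged from 50 (without FK506 rat 2 of 28 doses) to 172 when 1 rat was left out, being 90 and 75 without vehicle rats 1 and 2 of 28 doses, 74 and 77 without FK506 rats 1 and 2 of 7 doses and 72 without vehicle rat 4 of 7 doses. Fewer arrays enter the fits to single days or groups. The cause of the different counts was not tested for any alternative. Genes near background are limited by the arrays, since their levels were close to the lowest tested mean of 5.75.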
